A study of Caenorhabditis elegans with 6 samples.

Results

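The genes described here are 10 factors of the nucleolus and of ribosome assembly in Caenorhabditis elegans, out of 45510 genes in the small RNA count tables. They were chosen by gene name, with earlier results of these data known: ncl-1, dao-5, fib-1, toe-1, pro-1, pro-2, pro-3, nst-1 and the 2 genes mutated in the study, riok-1 and rrp-8. The last is listed by its sequence name, T07A9.8, and the RefSeq gene table names it rrp-8. The files give each gene by transcript, and dao-5 and fib-1 have 2 transcript features each, riok-1 has 4 and the other 7 genes have 1.

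The nucleolus is the part of the nucleus where RNA polymerase I copies the ribosomal DNA and where the precursor rRNA is cut, modified and joined with ribosomal proteins. Box C/D snoRNPs guide the methylation of ribose 2′-OH groups in rRNA, the small and the large subunit then mature along separate routes, and GTPases and kinases release the assembly factors. In worms, mRNAs can be copied by RNA-dependent RNA polymerases into secondary siRNAs that run antisense to them. NRDE-3 is an Argonaute protein of somatic cells that carries such siRNAs into the nucleus.

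The 6 groups of L3 larvae had 1 library each. The control strain carried eri-1(mg366) and GFP::NRDE-3, which all groups shared. One mutant strain carried susi-2(ust49) in addition, and the other susi-3(ust51). By background knowledge, susi-2 is rrp-8 and susi-3 is riok-1. The labels do not give the lesions, and each allele is a single mutant line. Each genotype gave total small RNA and small RNA recovered from an NRDE-3 immunoprecipitation (IP) with an anti-FLAG antibody. All groups carry the label 15 °C with OP50 bacteria as food, and the growth protocol gives 20 °C for their maintenance beforehand. Libraries held 9122066 to 10755494 counts. Larvae were extracted whole, so fewer siRNAs per cell and fewer cells with siRNAs cannot be told apart.

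Counts on the strand of the gene are called sense and include fragments of the transcript. Counts on the other strand are called antisense and include the siRNAs. Levels are counts per 1000000 counts of the library (CPM). A ratio compares 2 shares of library counts, and its bracketed 95% interval is the exact conditional interval of the 2 counts. It covers counting error only and treats each read as independent. The reads carry no molecular identifiers and can be copies of 1 molecule, in which case the interval is too narrow. With 1 library per group no difference has a replicate check and no test was run. A gene was read as at least 2-fold higher or lower when log2((CPM + 1)/(CPM + 1)) reached 1 or −1, and only if it had at least 50 counts of that strand over both libraries. The added 1 CPM is a pseudocount, so a gene with a share ratio beyond 2-fold can miss this call.

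Of the 4 comparisons of a mutant with the control, the antisense counts of these genes differed most in the NRDE-3 IP of susi-2, where they came to 1592 over all 10 together against 388 in the control IP. As a share of the library this was 4.84-fold higher (4.33 to 5.42). All 10 genes passed the count minimum, and 9 were at least 2-fold higher, beside 45.8% of the 4436 genes tested. The minimum is set on both libraries together, so genes with few control counts could pass through the susi-2 IP. Examples are pro-2, with 51 counts against 6, and rrp-8, with 48 against 7. Passing and being higher are thus tied, for the members and for all genes. The members' median log2 ratio was 1.93, against 0.92 for all genes tested, so the antisense median of all genes was higher as well. None was at least 2-fold lower, beside 5.34% of all genes. Antisense counts of all protein-coding genes made up 7.26% of the susi-2 IP, 4.16% of the control IP and 4.03% of the susi-3 IP. TMM scaling takes a trimmed mean of the gene ratios as no change, which lay here at a log2 ratio of 1.05. With it 6 members were at least 2-fold higher and dao-5 turned to a log2 ratio of −0.08. The share of all genes called was not counted under TMM scaling, here or for the later counts.

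The nucleolar structure genes come first. ncl-1 encodes a B-box and NHL repeat protein that limits the size of the nucleolus. It had 66, 80 and 54 antisense counts in the total libraries of control, susi-2 and susi-3, and 158, 805 and 112 in the IPs, listed in the same order. The susi-2 IP stood far above the other 5 libraries, at 88.2 CPM against 14.7 CPM in the control IP, a ratio of 6.01 (5.06 to 7.17). ncl-1 alone supplied the 805 of 1592 antisense counts in that library. Without it the other 9 genes gave 787 against 230 counts, a ratio of 4.03 (3.48 to 4.69). The RefSeq gene table gives ncl-1 a span that overlaps the coding gene acs-25. That gene was not matched to the count tables, so reads from shared sequence could not be checked.

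dao-5 encodes a Nopp140-like nucleolar phosphoprotein. Its antisense counts were 176, 174 and 110 in total small RNA and 42, 69 and 10 in the IPs. The total libraries were the higher ones in every genotype. In the IPs susi-2 was at 1.94 (1.30 to 2.91), the lowest of the 10, and susi-3 at 0.269 (0.121 to 0.546), so the mutants lay on opposite sides of the control. The all-gene medians did as well, at log2 ratios of 0.92 in susi-2 and −0.37 in susi-3.

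fib-1 and rrp-8 act on rRNA directly. The first encodes fibrillarin, the methyltransferase of box C/D snoRNPs. It had 115, 126 and 92 antisense counts in total small RNA and 29, 130 and 19 in the IPs. With its 2 features summed, the total libraries did not differ beyond counting error, susi-2 at 1.10 (0.847 to 1.43) and susi-3 at 0.854 (0.642 to 1.13). With the feature of most counts alone, the total log2 ratio in susi-2 was −0.35 in place of 0.13. The susi-2 IP was 5.29-fold higher than the control IP (3.51 to 8.20). In the susi-3 IP, where fib-1 did not reach the count minimum, the ratio was 0.741 (0.393 to 1.37).

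rrp-8 encodes a methyltransferase that modifies the RNA of the large subunit, and it is the locus mutated in susi-2. Its antisense counts were 53, 16 and 31 in total small RNA and 7, 48 and 8 in the IPs. The 2 kinds of library thus moved in opposite directions in its own mutant: the total share was at a ratio of 0.303 (0.162 to 0.538) and the IP share at 8.09 (3.64 to 21.2). The all-gene medians also differed in this way, at log2 ratios of −0.60 in total small RNA and 0.92 in the IP. So did toe-1, pro-1 and pro-2, with both intervals leaving out 1. The share of all genes with 2 such intervals was not counted. Sense counts of rrp-8 in susi-2 were the lowest of the 3 genotypes in both kinds of library, 10 against 30 in the total control and 31 against 106 in the IP control.

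The RefSeq gene table places nog-1, which encodes a GTPase of large subunit assembly, next to rrp-8 with overlapping spans. Its sense counts in the total libraries were 502, 1587 and 445, so the sense share was 3.17-fold higher in susi-2 (2.87 to 3.52) and at 0.947 in susi-3 (0.831 to 1.08). In the IP libraries its sense counts were 731, 1251 and 617, and susi-2 was at 2.02 (1.84 to 2.21). Antisense counts of nog-1 were 167, 222 and 91 in total small RNA, and 54, 184 and 30 in the IPs. In total small RNA of susi-2 the neighbours therefore differed, with nog-1 above the control on both strands and rrp-8 below it on both. The table gives no strand, and how the authors assigned reads in the overlap is not stated, so the counts of this pair are uncertain where they share sequence.

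Among the small subunit factors, toe-1 encodes a nucleolar HEAT repeat protein, named as a target of the ERK kinase MPK-1. It had 410, 259 and 160 antisense counts in total small RNA and 85, 225 and 37 in the IPs. Both mutants lay below the control in total small RNA, susi-2 at 0.634 (0.541 to 0.743) and susi-3 at 0.417 (0.345 to 0.502). In the IPs they parted, susi-2 at 3.12 (2.42 to 4.05) and susi-3 at 0.492 (0.325 to 0.733).

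riok-1 encodes a RIO kinase of late small subunit maturation and is the locus mutated in susi-3. Its antisense counts were 56, 54 and 29 in total small RNA and 14, 54 and 11 in the IPs. In susi-3, its own mutant, the total share was at 0.553 (0.341 to 0.881), and the IP share at 0.889 (0.365 to 2.11) rested on 11 and 14 counts. The total log2 ratio of riok-1, −0.68, was near the all-gene median of −0.56. Its sense counts were 94, 138 and 89 in total small RNA and 427, 344 and 366 in the IPs, and susi-3 differed from the control in neither kind of library beyond counting error.

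The large subunit factors include pro-1, pro-2 and pro-3, named for proximal proliferation in the germline, the defect caused by their loss in the somatic gonad. pro-1 encodes a WD repeat protein, pro-2 a protein of the NOC2 family and pro-3 a protein of the SDA1 family. pro-1 had 89, 41 and 39 antisense counts in total small RNA and 15, 36 and 8 in the IPs. For pro-2 these counts were 117, 67 and 43, and 6, 51 and 8. Both genes were highest in the total control library and, within the IPs, highest in susi-2. In the susi-2 IP the share ratio of pro-2 was 10.02 (4.30 to 28.6), from a control count of 6. On the log2 scale with its pseudocount it was 2.08, below the 2.51 of ncl-1 and the 2.18 of pro-3.

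pro-3 had 62, 46 and 32 antisense counts in total small RNA and 20, 109 and 61 in the IPs. It was the 1 member whose intervals lay above 1 in both mutant IPs, at 6.43-fold in susi-2 (3.96 to 10.9) and 3.45-fold in susi-3 (2.05 to 6.04). Its ratio between the mutant IPs, 1.86 (1.35 to 2.59), was the smallest of the 10. How many of all genes had intervals above 1 in both mutant IPs was not counted. nst-1 encodes nucleostemin, a nucleolar GTPase required for larval growth. It had 78, 58 and 53 antisense counts in total small RNA and 12, 65 and 15 in the IPs, and the susi-2 IP was at 6.39 (3.42 to 12.99).

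**Figure D1:**
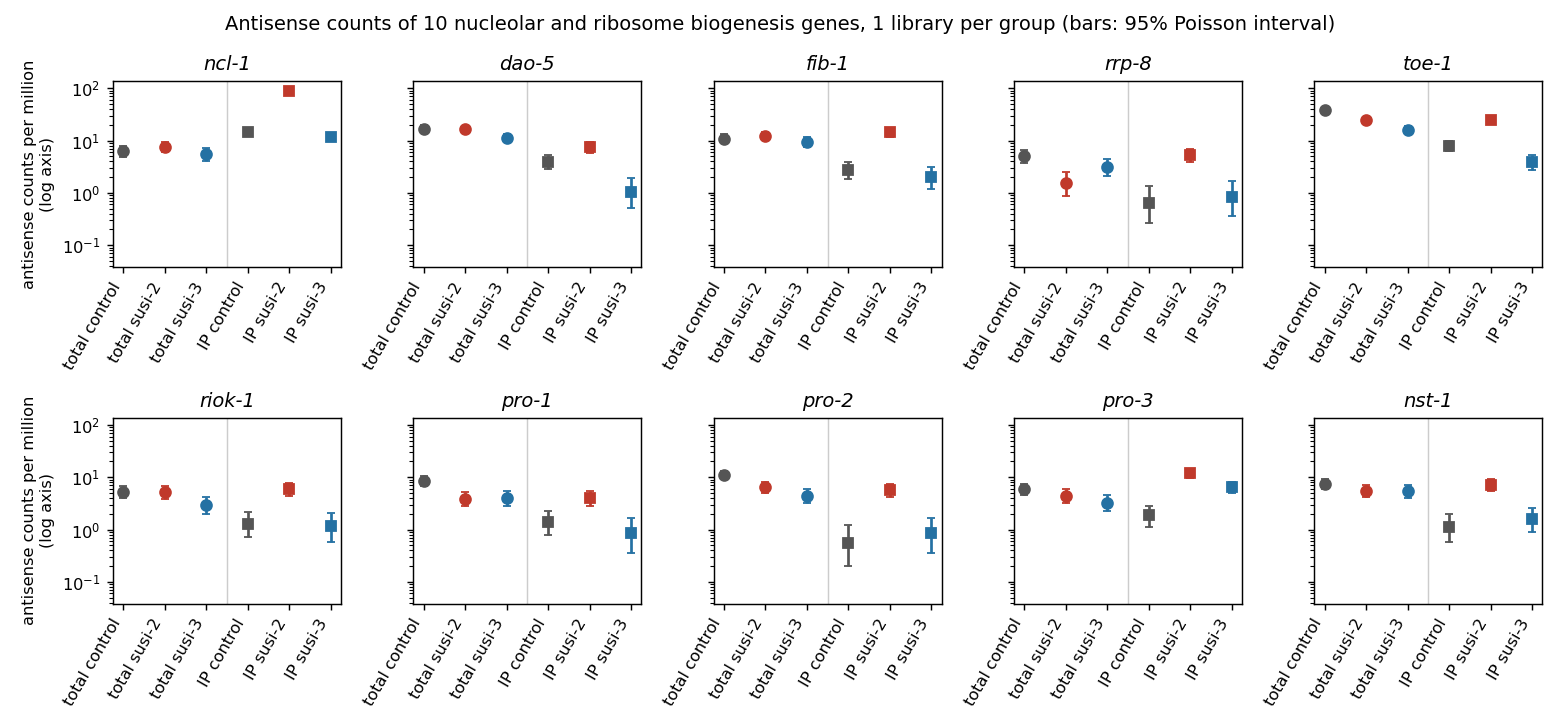
Antisense level of each gene in CPM (log axis) in the 6 libraries, circles for total small RNA and squares for the NRDE-3 IP, with 95% Poisson intervals of each count. Among the squares of every panel the susi-2 square is the highest, and ncl-1 in the susi-2 IP, at 88.2 CPM, is the highest point of the plot.

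In total small RNA the antisense counts of these genes did not follow the IP. Over all 10 genes there were 1222 in the control, 921 in susi-2 and 643 in susi-3, ratios of 0.757 (0.694 to 0.825) and 0.562 (0.510 to 0.619). In susi-2, rrp-8 was the 1 member of 10 tested that was at least 2-fold lower, beside 25% of the 5362 genes tested, and none was at least 2-fold higher, beside 3.94%. pro-1, at a share ratio of 0.462 (0.311 to 0.677), missed this call with the pseudocount (log2 ratio −0.95). The members' median log2 ratio was −0.36 against −0.60 for all genes. By direction alone 2 lay above 0 and 8 below, which turned to 6 and 4 with TMM scaling, where no member was at least 2-fold lower. Of the 10 intervals, 4 lay wholly below 1, those of rrp-8, toe-1, pro-1 and pro-2. The share of all genes with such intervals was not counted.

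In susi-3, toe-1 and pro-2 were the 2 members of 10 at least 2-fold lower, beside 18.5% of the 5460 genes tested, and none was at least 2-fold higher, beside 5.48%. pro-2 stood at a ratio of 0.393 (0.270 to 0.561). pro-1, at 0.468 (0.313 to 0.689), missed the call with the pseudocount (log2 ratio −0.93). The members' median log2 ratio of −0.61 was close to the −0.56 of all genes. All 10 lay below 0, but 3 lay above it with TMM scaling, which left none at least 2-fold lower. For antisense counts, the shares of members called in the total libraries were near or below those of all genes. Antisense counts of all protein-coding genes made up 13.1% of the control total library, 6.61% of susi-2 and 8.85% of susi-3.

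In the susi-3 IP, the antisense sum was 289 against 388 in the control, a ratio of 0.843 (0.721 to 0.984). Without ncl-1 it was 177 against 230, at 0.871 (0.712 to 1.06), an interval that includes 1. Only ncl-1, dao-5, toe-1 and pro-3 reached the count minimum, so the other 6 are given by their counts. Of these 4, pro-3 was at least 2-fold higher, beside 11.8% of the 2823 genes tested, and dao-5 at least 2-fold lower, beside 23%. ncl-1 was at 0.802 (0.624 to 1.03). The 6 other members had 6 to 29 counts in the control IP and 8 to 19 in susi-3, and each of their intervals included 1.

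Set directly against each other, the mutant IPs differed beyond counting error for each of the 10 genes. The share in susi-2 was 1.86-fold to 7.49-fold that in susi-3, with a median of 6.30, and all 10 counting intervals lay above 1. Antisense counts in general stood higher in this library: 77.4% of the 4028 genes with at least 50 counts had intervals above 1 and 4.37% below 1, with a median ratio of 2.48, and 9 members reached that minimum. In the total libraries the same ratio ran from 0.485 to 1.75, with 3 intervals above 1, beside 20.7% of the 4771 genes tested, and 1 below, that of rrp-8, beside 31.8%. rrp-8 itself fell short of the minimum there.

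**Figure D2:**
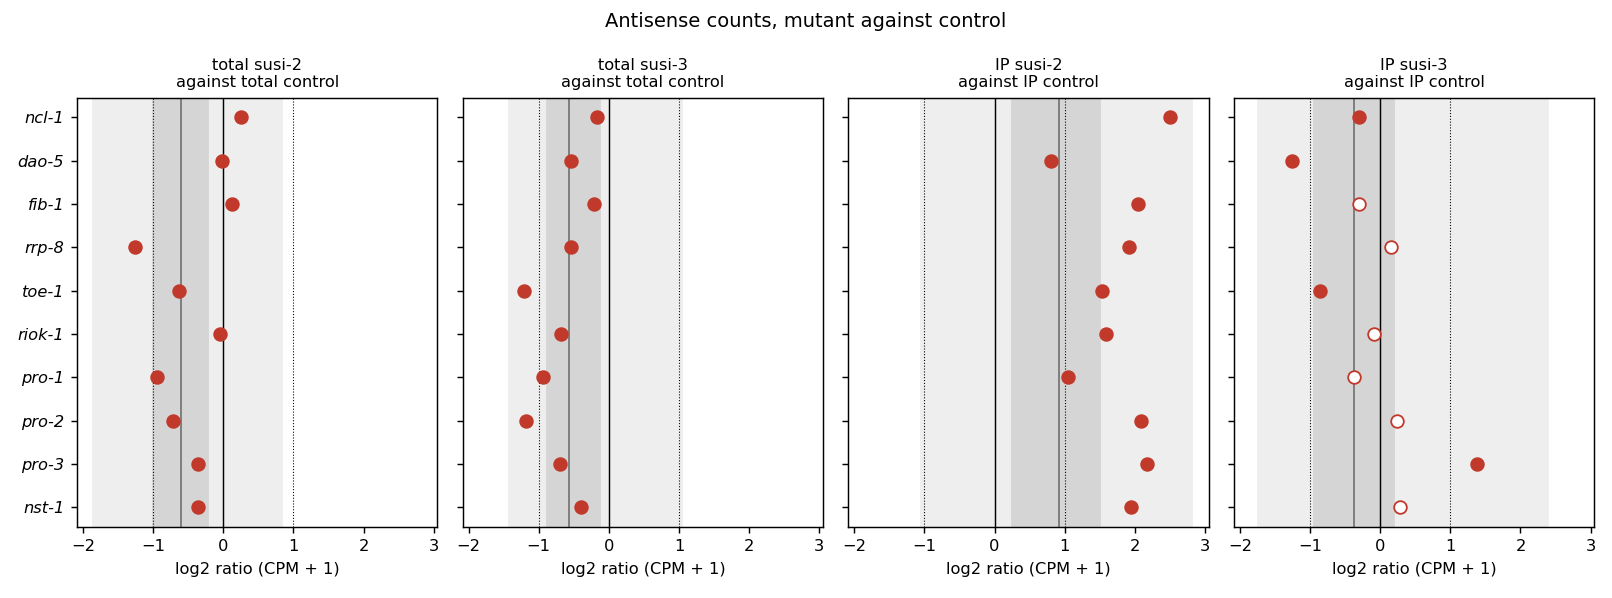
Log2 ratio of antisense CPM + 1, mutant against control, for each gene. Filled points passed the minimum of 50 counts, open points did not. Dark and pale bands span the middle 50% and 90% of all genes tested, the grey line is their median, and dotted lines mark 2-fold. The points of the susi-2 IP lie between 0.80 and 2.51, 9 of 10 to the right of the grey line, while those of the total libraries lie on both sides of it.

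Sense counts showed another order. In total small RNA of susi-2 the sense sum over the 10 genes was 2883 against 1427 in the control, 2.03-fold higher (1.90 to 2.16), and in susi-3 it was 1795, 1.34-fold higher (1.25 to 1.44). Of 9 members with enough sense counts in susi-2, 5 were at least 2-fold higher, beside 15.7% of the 8350 genes tested, and none was at least 2-fold lower, beside 8.59%. Their median log2 ratio was 1.19 against 0.44 for all genes and 0.51 for protein-coding genes. With TMM scaling all 9 lay above 0, and pro-3 was the 1 member at least 2-fold higher.

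The 5 were dao-5, fib-1 and the 3 pro genes. Sense counts of pro-3 were 51, 176 and 111, and susi-2 was 3.46-fold above the control (2.52 to 4.83). pro-1 had 25, 78 and 41, a ratio of 3.13 (1.97 to 5.13), and pro-2 had 67, 170 and 116, a ratio of 2.55 (1.91 to 3.43). In each pro gene the control was the lowest library and susi-3 lay between the others. fib-1 had 189, 459 and 279 sense counts, a ratio of 2.44 (2.05 to 2.90), and dao-5 had 192, 451 and 230, a ratio of 2.36 (1.99 to 2.81).

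The other sense counts in the total libraries were 418, 740 and 431 for ncl-1, and 186, 374 and 257 for nst-1. In susi-2, nst-1 at a share ratio of 2.02 (1.69 to 2.42) missed the call with the pseudocount (log2 ratio 0.97). For toe-1 the sense counts were 175, 287 and 205, and for rrp-8 30, 10 and 36. rrp-8, mutated in this strain, was thus the 1 member below the control in susi-2, at 0.335 (0.146 to 0.703), though with 40 counts in all it fell short of the minimum. In susi-3, pro-3 was the 1 member of 10 at least 2-fold higher (2.32, 1.65 to 3.31), beside 10.3% of the 8075 genes tested, and none was at least 2-fold lower, beside 8.02%. The members' median there was 0.44 against 0.23 for all genes. All 10 lay above 0, but 8 with TMM scaling, which left no member at least 2-fold higher.

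In the IP libraries the sense counts went the other way, 6319 in the control, 4351 in susi-2 and 3748 in susi-3 over the 10 genes. The ratios were 0.812 (0.781 to 0.844) and 0.671 (0.644 to 0.699). In susi-2, rrp-8 at 0.345 (0.223 to 0.519) and pro-2 at 0.386 (0.323 to 0.459) were at least 2-fold lower, beside 16.9% of the 8731 genes tested, and none was at least 2-fold higher, beside 4.54%. In susi-3, pro-2 at 0.254 (0.206 to 0.310) was the 1 member at least 2-fold lower, beside 9.04% of the 8610 genes tested, and none was at least 2-fold higher, beside 3.22%. pro-2 had 526, 172 and 118 sense counts in the 3 IPs, the control being far above both mutants. The members' medians, −0.36 and −0.61, stood beside −0.50 and −0.36 for all genes. With TMM scaling 3 of the 10 lay above 0 in each mutant, against 1 in susi-2 and 0 in susi-3 without it. rRNA made up 58.4% of the control IP, 64.6% of the susi-2 IP and 64.9% of the susi-3 IP, which lowers the other shares in the mutants. With library totals without rRNA, 3 members lay above 0 in susi-2 and 2 in susi-3. The members' medians on that scale were −0.14 and −0.38.

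The other members' sense counts in the IPs of control, susi-2 and susi-3 were 1708, 1528 and 1083 for fib-1, and 1342, 889 and 924 for ncl-1. For toe-1 they were 895, 500 and 437, for dao-5 482, 306 and 209, and for pro-3 407, 303 and 290. For nst-1 they were 276, 180 and 141, and for pro-1 150, 98 and 129. The control IP held the most sense counts of each of these 7 genes. As a share of the library, fib-1 in susi-2 was the exception, at 1.05 (0.984 to 1.13) times the control.

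**Figure D3:**
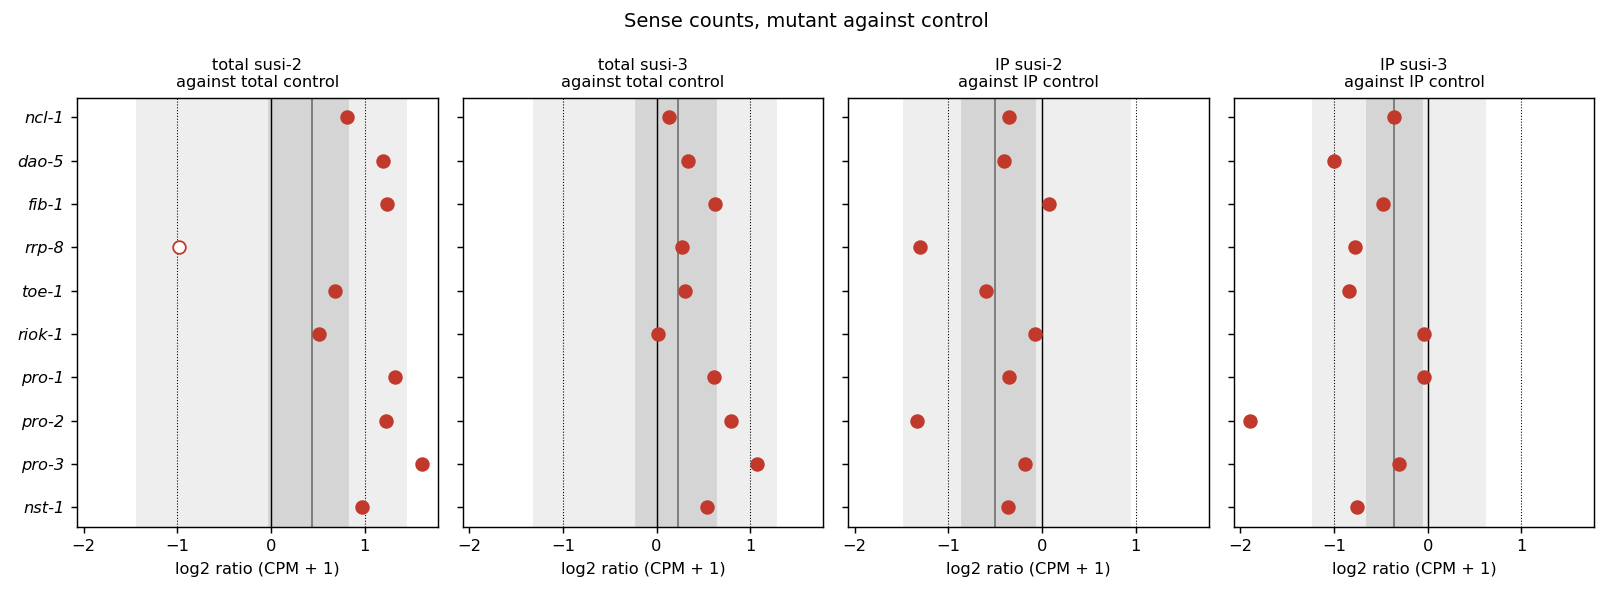
Log2 ratio of sense CPM + 1, mutant against control, for each gene, drawn as in the antisense plot. In total small RNA of susi-2 every filled point lies right of the all-gene median (0.44), and the open point of rrp-8 lies at −0.98.

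The balance of the strands combines both. In the control total library antisense counts made up 46.1% (44.2 to 48.1, exact Clopper-Pearson) of the counts on the 10 genes. This was 24.2% (22.9 to 25.6) in susi-2 and 26.4% (24.6 to 28.2) in susi-3. In the IPs it was 5.79% (5.24 to 6.37), 26.8% (25.7 to 27.9) and 7.16% (6.38 to 7.998). All protein-coding genes together gave 54.1%, 28.2% and 39.0% in total small RNA and 14.1%, 26.5% and 14.6% in the IPs. These sums rest on few genes. Without ncl-1 the members gave 53.4% in the control total library, 4.42% in the control IP and 18.5% (17.4 to 19.7) in the susi-2 IP. Taken gene by gene, the median of the 10 was 51.3% in the control total library, against 44.1% for protein-coding genes. In the mutant total libraries it was 27.98% against 18.75% in susi-2 and 25.9% against 22.7% in susi-3. The members' median thus lay above that of protein-coding genes in each total library, although their sum lay below. In the IPs the members' median was 5.44% against 8.59% in the control, 26.5% against 27.1% in susi-2 and 7.08% against 9.15% in susi-3.

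Single genes spread widely around these sums. In the control total library the antisense percent ran from 13.6% for ncl-1 (10.7 to 17.0) to 78.1% for pro-1 (69.4 to 85.3). In the control IP it ran from 1.13% for pro-2 (0.415 to 2.44) to 10.5% for ncl-1 (9.02 to 12.2), so ncl-1 moved from the lowest member to the highest. In the susi-2 IP rrp-8 reached 60.8% (49.1 to 71.6) and ncl-1 47.5% (45.1 to 49.9), against 7.84% (6.59 to 9.24) for fib-1, which kept mostly sense counts.

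**Figure D4:**
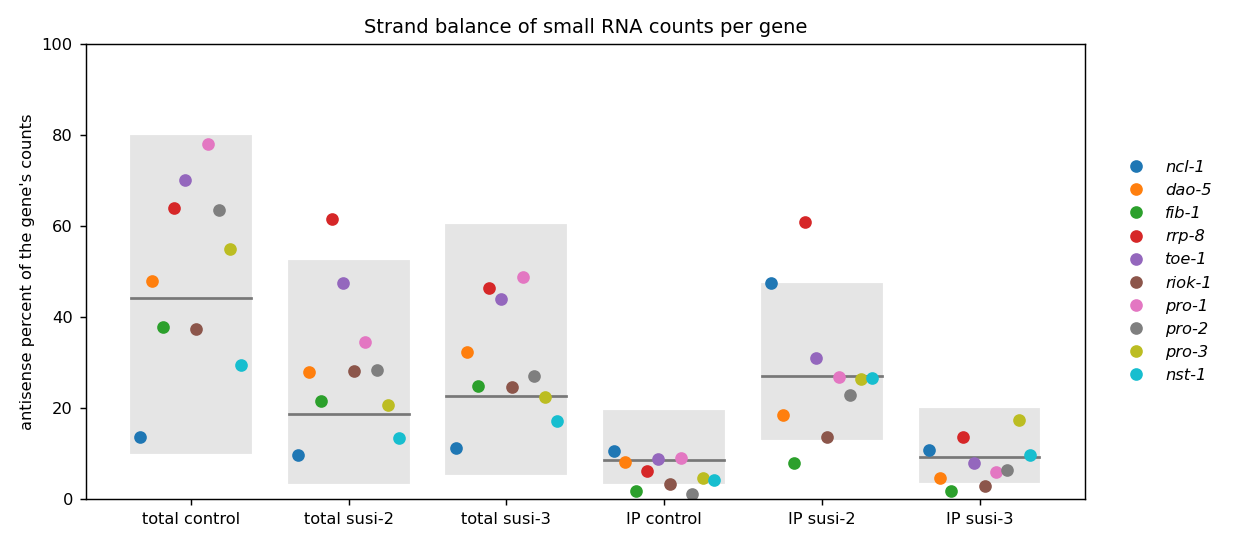
Antisense percent of each gene's own counts in the 6 libraries. Grey boxes span the middle 50% of protein-coding genes with at least 50 counts on both strands together, and the grey line is their median. The members spread from 13.6% to 78.1% in the control total library, and all 10 lie at or below 10.5% in the control IP.

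The IP was last set beside its own total library, genotype by genotype. No untagged IP was among the samples, so bound RNA and RNA carried over cannot be told apart. In the control, 9 of 10 members had an antisense share at least 2-fold lower in the IP than in total small RNA, beside 70.8% of the 5281 genes tested. With TMM scaling 4 were. ncl-1 was the exception, at 2.34-fold higher (1.74 to 3.17), beside 11.9% of genes at least 2-fold higher. The lowest was pro-2 at 0.0501 (0.0180 to 0.112). In the control the no-change point of TMM scaling lay at a log2 ratio of −1.25, above the all-gene median of −1.82. In susi-2 these values were 0.49 and −0.09, and in susi-3 −0.78 and −1.72.

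In susi-2, 3 members were at least 2-fold higher in the IP, beside 31.4% of the 5574 genes tested: ncl-1 at 11.6 (9.17 to 14.7), rrp-8 at 3.44 (1.92 to 6.50) and pro-3 at 2.72 (1.91 to 3.93). dao-5 was the 1 member at least 2-fold lower, at 0.455 (0.339 to 0.605), beside 31.7%. The other 6 members lay between 0.874 and 1.29, each with an interval that included 1. TMM scaling left ncl-1 as the 1 gene at least 2-fold higher, and 3 members above 0 in place of 7.

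In susi-3, 5 of 7 members tested were at least 2-fold lower in the IP, beside 65.8% of the 4219 genes tested, with dao-5 the lowest at 0.0941 (0.0439 to 0.180). The 2 above the total library were ncl-1 at 2.15 (1.54 to 3.03) and pro-3 at 1.97 (1.27 to 3.13). On the log2 scale with its pseudocount neither reached 2-fold, beside 15% of genes at least 2-fold higher, and both did with TMM scaling. ncl-1 was thus above its total library in all 3 genotypes.

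**Figure D5:**
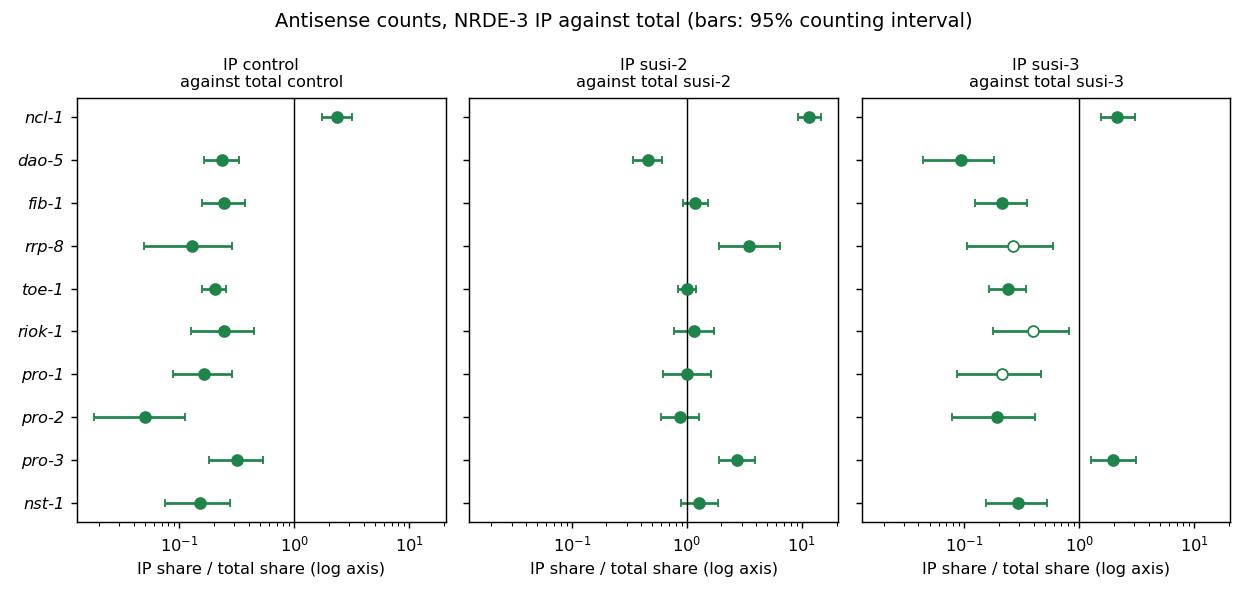
Ratio of the antisense share in the NRDE-3 IP to that in total small RNA of the same genotype (log axis), with 95% counting intervals. Filled points passed the minimum of 50 counts. ncl-1 lies right of 1 in every panel, and in susi-2 the other genes lie between 0.455 and 3.44, against 0.0501 to 0.315 in the control.

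A wider list of 50 ribosome biogenesis genes that are not among the 10 was read the same way, and 44 were matched to the tables. It too was chosen with earlier results of these data known. In the susi-2 IP, 20 of 30 tested had antisense shares at least 2-fold higher, beside 45.8% of all genes, and none was lower, beside 5.34% (median log2 ratio 1.42). Passing the count minimum and being higher are tied here too. With TMM scaling, for which no share of all genes was counted, 8 were higher and 1 lower. By role, those at least 2-fold higher were 6 of 7 genes of snoRNPs and rRNA modification, 7 of 8 large subunit factors, 3 of 9 small subunit factors, 2 of 3 RNA polymerase I genes and 2 of 3 nucleolar factors of broad role. Differences between the roles were not tested. The highest were snu-13, the box C/D core protein gene, at 12.4 (8.57 to 18.6) with 326 counts against 31, and nol-56, another box C/D core protein gene, at 11.5 (7.38 to 18.7) with 214 against 22. The lowest were dcaf-13, a small subunit factor and the coding neighbour of toe-1 in the RefSeq table, at 0.549 (0.370 to 0.804), and byn-1, a bystin gene, at 1.01 (0.704 to 1.45). rpoa-1, the large subunit of RNA polymerase I, had the most antisense counts of the list, 1345 against 1407, at 1.13 (1.05 to 1.22).

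In the susi-3 IP, 18 of the 44 were tested, and 2 were at least 2-fold higher, beside 11.8% of all genes, and 1 lower, beside 23% (median −0.37). eif-6, a factor that keeps the large subunit from joining the small one, was at 6.13 (3.74 to 10.6) with 103 counts against 19. rrp-1, a large subunit factor, was at 3.64 (1.96 to 7.17) with 45 against 14. xrn-2, a nuclear exoribonuclease, was at 0.364 (0.229 to 0.563), dcaf-13 at 0.450 (0.295 to 0.673) and rpoa-1 at 0.560 (0.510 to 0.613).

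In total small RNA of susi-2, none of 40 listed genes was at least 2-fold higher, beside 3.94% of all genes, and 3 were lower, beside 25% (median −0.33). dcaf-13 at 0.328 (0.218 to 0.485) and xrn-2 at 0.471 (0.410 to 0.541) were the lowest. The highest were nucl-1, a nucleolin gene, at 1.34 (1.01 to 1.76) and nog-1 at 1.33 (1.09 to 1.64), and rpoa-1 was at 0.688 (0.567 to 0.832). In susi-3, none of 39 was at least 2-fold higher, beside 5.48% of all genes, and 6 were lower, beside 18.5% (median −0.70). With TMM scaling none was lower in either mutant. The lowest in susi-3 were nol-6, a small subunit factor, at 0.369 (0.261 to 0.513) and rrp-1 at 0.350 (0.193 to 0.604). The highest were nol-56 at 0.927 (0.643 to 1.33) and nol-14 at 0.777 (0.504 to 1.19). xrn-2 and rpoa-1, with the most counts, were at 0.568 (0.498 to 0.648) and 0.514 (0.414 to 0.636).

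Sense counts of the wider list in total small RNA of susi-2 were at least 2-fold higher for 22 of 40 genes, beside 15.7% of all genes, and lower for none, beside 8.59%. The list's median log2 ratio was 1.07, against 0.44 for all genes, and with TMM scaling 6 genes were at least 2-fold higher. In susi-3, 1 of 38 was higher, beside 10.3%, and none was lower, beside 8.02% (median 0.50). In the susi-2 IP, 2 of 42 were higher, beside 4.54%, and none was lower, beside 16.9% (median −0.20). In the susi-3 IP, 2 of 44 were higher, beside 3.22%, and 4 lower, beside 9.04% (median −0.54). With TMM scaling 1 was lower there.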

How the data were processed

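Each deposited table holds raw counts of sense and antisense reads per transcript feature, per the file headers. Bowtie2 is the aligner that the submitters' processing notes name. Its version, the genome build and the rule for reads with several matches are not stated there or elsewhere in the labels. Per the labels' protocols, RNA of 17 to 30 nt was cloned after phosphatase and kinase treatment. Read lengths are not in the tables, so siRNAs were not separated from other antisense fragments.

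The 56377 features were summed to 45510 genes (5 blank cells read as 0, and 3 features without a gene, at most 122 counts per library, left out). One count was 0.0930 to 0.110 CPM, and a count of 0 allows up to 2.79e-05% to 3.29e-05% (3 counts). RefSeq (WBcel235) gave names and neighbours only: 4 members overlap another gene there. ncl-1 overlaps ZK112.4 and ZK112.14, each with at most 9 counts per strand and library, and acs-25, which was not matched to the count tables. dao-5 overlaps rsa-1 (at most 67), rrp-8 overlaps nog-1, and pro-3 overlaps zhp-4 (at most 35).

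The 7 comparisons of 1 library with another used a pseudocount of 1 CPM, 50 counts and 2-fold, without tests. Alternatives were TMM (edgeR 4.0.16), totals without rRNA, no filter, a pseudocount of 0.1 and 1 feature per gene. TMM scaling of the wider list was added after seeing the data. Code (Python 3.11.15, scipy 1.17.1) was tested on simulated data. The members and lists were chosen with earlier results of these data known. All 10 members are named; from the wider list, the 2 highest, 2 lowest and 2 most abundant per genotype comparison, and nog-1.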

Additional observations from a re-analysis of the deposited data

Results flagged for a closer look

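dao-5 and toe-1 were flagged because the mutants lay on opposite sides of the control IP in antisense counts, each interval leaving out 1. The all-gene medians also lay on opposite sides, at log2 ratios of 0.92 in the susi-2 IP and −0.37 in the susi-3 IP. Over all genes tested the median ratio between the mutant IPs was 2.48. The share of all genes that meet this flag was not counted. dao-5 had 69 counts in susi-2 and 10 in susi-3 against 42, and its susi-2 share was 7.19-fold that of susi-3 (3.68 to 15.7). toe-1 had 225 and 37 against 85, a ratio of 6.34 (4.46 to 9.23) between the mutants. With 1 library each, the difference between genotypes was not tested. For dao-5, the susi-2 side turned with TMM scaling (log2 ratio −0.08).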

How the results depend on the processing

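No paired analysis was possible because each group has 1 library. The 5 alternatives were tried on 22 counts of members and on the log2 ratio of each member, and no ratio of a member at least 2-fold changed turned its sign. TMM scaling moved most. It took the members with antisense at least 2-fold lower in total small RNA from 1 to 0 in susi-2 and from 2 to 0 in susi-3. Those with sense higher went from 5 to 1 in susi-2 and from 1 to 0 in susi-3. For the IP against total, lower in the control went from 9 to 4, higher in susi-2 from 3 to 1 and higher in susi-3 from 0 to 2. Totals without rRNA moved the IP against total: higher from 3 to 5 and lower from 1 to 0 in susi-2, and higher from 0 to 2 in susi-3. A pseudocount of 0.1 gave 2 in place of 1 for antisense lower in total small RNA of susi-2, for antisense lower and for sense lower in the susi-3 IP, and 1 in place of 0 for higher in the susi-3 IP against total. One feature per gene left 0 in place of 1 for antisense lower in the susi-3 IP and for lower in the susi-2 IP against total. The 9 members with antisense at least 2-fold higher in the susi-2 IP were 6 to 10 under the alternatives. Leaving out the count minimum moved none of the 22 counts beyond 1.5 times. Of the single ratios, 48 moved beyond their counting interval with TMM scaling and 52 did not, against 27 and 73 for totals without rRNA and 1 and 93 for 1 feature per gene. That 1 was the antisense ratio of fib-1 in total small RNA of susi-2. The other alternatives moved none. In the susi-3 IP, 6 of 10 members lacked 50 antisense counts over both libraries, which limits that comparison.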
